A study of Mus musculus with 8 samples.

Results

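The control libraries of a mouse sperm small RNA study are described here on their own, as the baseline against which an ethanol group was set. They are the 4 of 8 libraries whose titles and treatment label say control. The other 4 libraries, from ethanol-treated samples, enter no value below. The labels give the tissue as sperm, the molecule as total RNA, Trizol for extraction and Qiaseq for the libraries. Strain, age, the way sperm were collected and any control treatment are not given in the labels, nor is it said that the 4 samples came from separate animals, so every SD measures the spread between these samples, which may be technical.

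Sperm carry little RNA of full length, and much of what they hold is short. miRNAs are short regulators cut from hairpin precursors, and usually 1 of the arms, named 5p and 3p, is kept. tRNA fragments are cut from mature tRNAs and are a known major class in mature sperm. piRNAs are bound by PIWI proteins, silence transposons in the male germ line, and in the testis come largely from long transcripts, the piRNA clusters. Fragments of mRNA exons, introns and transposons make up much of the rest.

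Control replicates 1 to 4, written control 1 to control 4 below, held 4206976, 4173236, 4221805 and 4543220 counts over 45413 features of 16 RNA classes. Of these features 1460 had a mean of at least 100 counts. Each library was counted as 1 sample. Every pair differed by more than sampling noise, so none is a copy of another. The chi-square statistic per degree of freedom ran from 96.0 between control 3 and control 4 to 418 between control 2 and control 4. Reads counted at more than 1 copy would raise it, and it cannot show that the samples came from separate animals. Control 2 stood apart, since across features its log2 CPM (the count scaled to a library total of 1e+06) correlated with the other libraries at 0.866 to 0.888, against 0.929 to 0.952 among the other 3. Features share library and depth and are not replicates, so these correlations only describe the libraries.

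The miRNAs are shown first by sequence, because the most abundant of them fall into a few groups that share a seed, the bases 2 to 8 of the 5′ end that pair with target mRNAs. Sequences are from RefSeq, build GRCm38.p6, written 5′ to 3′ with the seed in capitals. By name, 528 of the 956 miRNA names matched a RefSeq entry, and these held 84.6% of miRNA counts on average. The miR-15 and miR-16 family, known for holding back cell division, has 4 members shown here.
miR-16-5p: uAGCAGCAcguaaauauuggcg
miR-15b-5p: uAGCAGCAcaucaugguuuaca
miR-15a-5p: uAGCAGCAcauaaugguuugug
miR-195a-5p: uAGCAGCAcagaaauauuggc

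The let-7 family, conserved regulators of developmental timing, is shown because its members are close enough in sequence that counting could share or misplace their reads.
let-7a-5p: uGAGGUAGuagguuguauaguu
let-7c-5p: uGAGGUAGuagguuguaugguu
let-7f-5p: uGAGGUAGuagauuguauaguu
let-7g-5p: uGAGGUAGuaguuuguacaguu
let-7b-5p: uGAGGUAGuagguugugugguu

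A further 6 abundant miRNAs are shown because their seeds differ from those above and from each other.
miR-191-5p: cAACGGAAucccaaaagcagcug
miR-125b-5p: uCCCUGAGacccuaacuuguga
miR-21a-5p: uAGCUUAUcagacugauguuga
miR-30c-5p: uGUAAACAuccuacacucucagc
miR-26a-5p: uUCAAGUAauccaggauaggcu
miR-199a-3p: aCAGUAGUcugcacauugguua

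Which RNA classes made up control sperm depended on how repeated rows of the table were treated. With all rows of a name summed, tRNA took 35% ± 2.3 of counts (mean ± SD, n = 4, as for all values below given as a mean ± SD), miRNA 20.8% ± 4.84 and piRNA clusters 14.9% ± 3.47. With only the largest row of each name, the same classes took 12.8% ± 1.14, 34.5% ± 7.31 and 24.8% ± 5.92, so tRNA moved from rank 1 to rank 3. Many tRNA rows carried the same counts: of 433 tRNA rows with a mean of at least 20 counts, 134 equalled another row of their name in all 4 libraries, or 30.9%, against 1.97% of sense transposon rows and 0.958% of mRNA exon rows. For snRNA rows that share was 26.9%. Whether reads were counted at every matching copy or divided evenly between copies cannot be told apart from the table, so the true tRNA share is not fixed by these data.

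Introns followed with 8.35% ± 0.558, mRNA exons with 5.85% ± 0.271, transposons in sense with 5.46% ± 0.591 and in antisense with 5.16% ± 0.887. Noncoding exons took 1.65% ± 0.228, the spliceosomal snRNAs 1.07% ± 0.0592 and snoRNAs, which guide RNA modification, 0.597% ± 0.0904. The other classes each stayed under 0.5% in every library. They were 7SL RNA of the signal recognition particle with 0.343% ± 0.0655, 4.5S and BC1 RNA with 0.322% ± 0.116, mitochondrial genes with 0.264% ± 0.132, hairpins with 0.128% ± 0.0294, rRNA with 0.0918% ± 0.0164 and Y RNA with 0.0409% ± 0.00317.

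With all rows of a name summed, each class was compared with the next in the order of mean shares within libraries. The order of the pair held in 4 of 4 libraries for 9 of 15 neighbouring pairs, among them tRNA over miRNA and piRNA clusters over introns. By the largest row the order of tRNA and miRNA was reversed in every library. There tRNA took 12.4, 13.4, 14.1 and 11.5% in control 1 to control 4, and miRNA 31.4, 45.4, 31.8 and 29.6%. With 4 libraries a two-sided exact sign-flip permutation test cannot give a p below 0.13, and each of these 9 pairs reached it (0.208 after Benjamini-Hochberg adjustment over 15 pairs). miRNA exceeded piRNA clusters in 3 of 4 libraries (exact p = 0.25, 0.341 after adjustment), and mRNA exons exceeded sense transposons in 3 of 4 (exact p = 0.5, 0.536 after adjustment). Since no pair could pass 0.05 with 4 libraries, the test does not show which neighbours differ, and the means and SDs above stand as a description.

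The classes did not vary alike. miRNA took 19.2, 28.0, 18.3 and 17.6% of counts in control 1 to control 4, and piRNA clusters 16.8, 10.2, 14.3 and 18.1%. Control 2 was therefore the highest library for miRNA and the lowest for piRNA clusters. tRNA lay between 32.6 and 38.1%, and mRNA exons between 5.46 and 6.07%. Since shares of a library sum to 100%, the classes were also set against all counts other than miRNA: piRNA clusters then took 20.8, 14.2, 17.5 and 21.9%, still lowest in control 2. Mitochondrial genes had the widest relative spread of the classes, with 0.188, 0.130, 0.425 and 0.314% and a coefficient of variation (CV, the SD as a percent of the mean) of 49.8%.

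**Figure D1:**
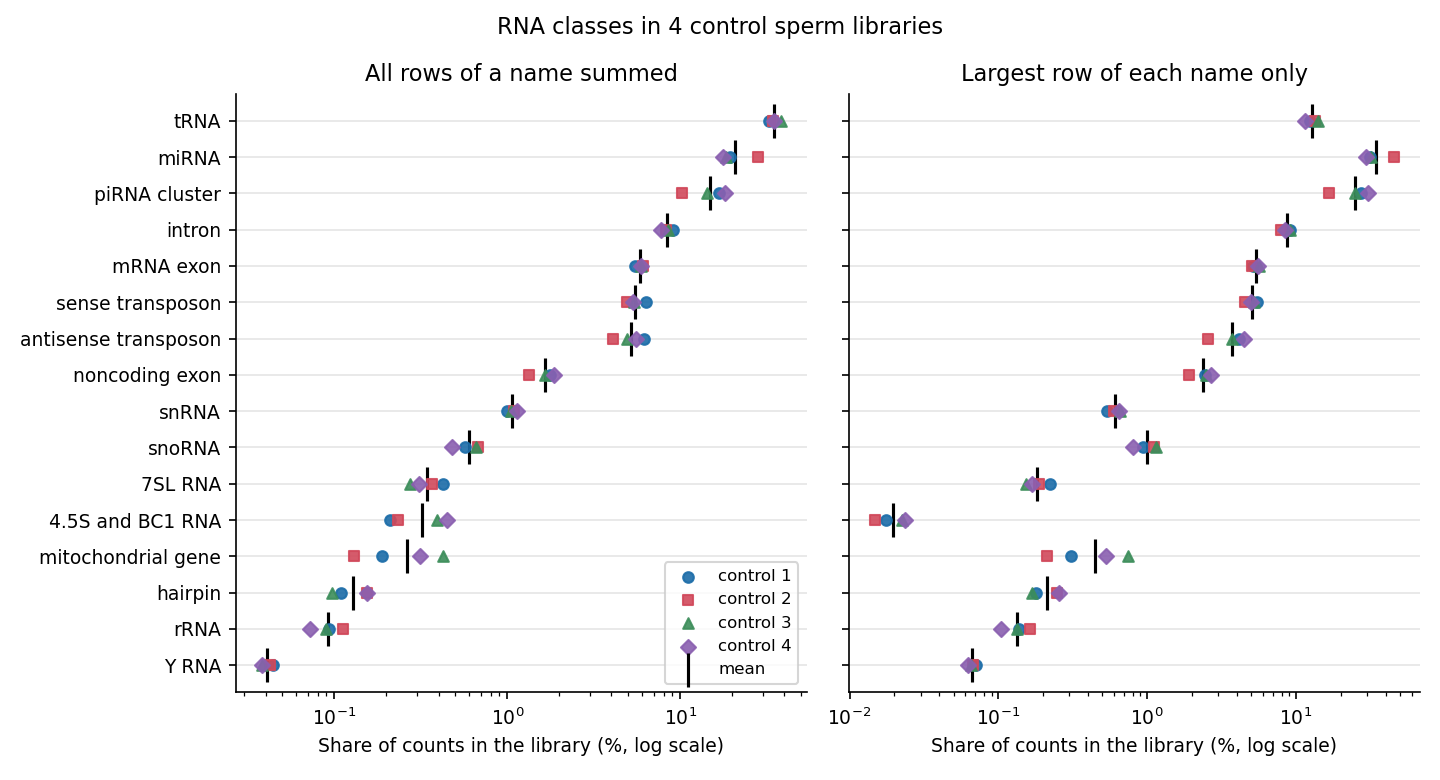
Each point is the share of 1 RNA class in 1 control library, in percent of its counts on a log axis, and the black bar is the mean of the 4 libraries. The left panel sums all rows of a name and the right panel uses its largest row, where tRNA falls from 35% to 12.8% on average and miRNA rises from 20.8% to 34.5%.

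Among miRNAs 1 name stood far ahead. miR-16-5p had 258805, 335486, 195769 and 224766 counts and took 28.5% ± 2.71 of miRNA counts, first in each library. It exceeded the next name in 4 of 4 libraries and by a wide margin: the next largest share in any library was 9.10%, of miR-143-3p in control 2. The first 10 names held between 63.5 and 66.9% of miRNA counts in each library, and 6 names of 956 reached 50% on average. Of the first 12 names in each library 7 were shared by all 4, and the 4 lists together held 16 names.

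The ranks below the first rested in part on values of 0. let-7a-5p had 71185, 0, 65564 and 64888 counts, and let-7c-5p had 31924, 0, 58282 and 53518. Both were listed at 0 in control 2, where their close relative let-7f-5p was at its highest, with 16956, 48307, 30393 and 29215 counts in the 4 libraries. At least 1 library listed a 0 for 12 of the 130 miRNAs whose median passed 100 counts, against 0 of 1301 such features of the other classes. Others of these were miR-34b-3p with 0, 14728, 15185 and 11517 counts and miR-30a-5p with 0, 5071, 2689 and 0. Such a 0 is given only as listed. Its cause was not tested, and the means of these miRNAs include it.

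Grouped by seed, the 5 miRNAs with AGCAGCA, the miR-15 and miR-16 seed, took 34.5, 31, 27.4 and 29.8% of miRNA counts. Their mean was 30.7% ± 2.99, so nearly all of it was miR-16-5p itself. miR-15b-5p followed with 17371, 20164, 12928 and 10922 counts and miR-15a-5p with 2530, 3815, 1813 and 2077. The 9 let-7 members with GAGGUAG took 16.2, 6.54, 22.2 and 20.2%, with a mean of 16.3% ± 6.97. Their sum was lowest in control 2, where 2 members are listed at 0. Other members were highest there, as let-7f-5p was: let-7d-5p had 1858, 4333, 2188 and 1944 counts, let-7i-5p 545, 3651, 567 and 829 and let-7e-5p 105, 847, 116 and 90. let-7b-5p, with 2944, 6660, 7420 and 5834, was highest in control 3. Among the matched names no other seed passed 4.84% in any library. The grouping leaves out names that were not matched. Among these were miR-143-3p, with 18039, 106296, 6046 and 28788 counts, and miR-34c-5p. miR-191-5p, the only matched name with AACGGAA, held 3.78% ± 0.750, and the 3 names with CCCUGAG, chiefly miR-125b-5p, held 3.16% ± 0.633.

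The middle of the list had 2 kinds of names. Some had a narrow spread: miR-34c-5p, which is abundant in meiotic and later germ cells, had 22856, 27842, 19528 and 25007 counts (2.72% ± 0.327), and miR-30c-5p had 23200, 25884, 19547 and 19543 (2.51% ± 0.269). miR-191-5p had 39172, 35988, 28470 and 28100. miR-669a-3p, which has many near-identical copies so that its counts are uncertain, had 37230, 34674, 27122 and 22070. Neither of these last 2 was highest in control 2.

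Other names were high in control 2 alone. miR-143-3p, a miRNA of smooth muscle, had 18039, 106296, 6046 and 28788 counts and had rank 10, 2, 26 and 5 in the 4 libraries. Its counts in control 2 were above those of every other miRNA there but miR-16-5p. miR-21a-5p had 12319, 55614, 16151 and 14589, miR-26a-5p 14384, 38631, 20801 and 17933, and miR-125b-5p 19311, 42554, 24575 and 22798. miR-199a-3p, known from fibroblasts and other stromal cells, had 3436, 33509, 4680 and 4593. Between the other 3 libraries these last 4 miRNAs differed far less than from control 2.

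**Figure D2:**
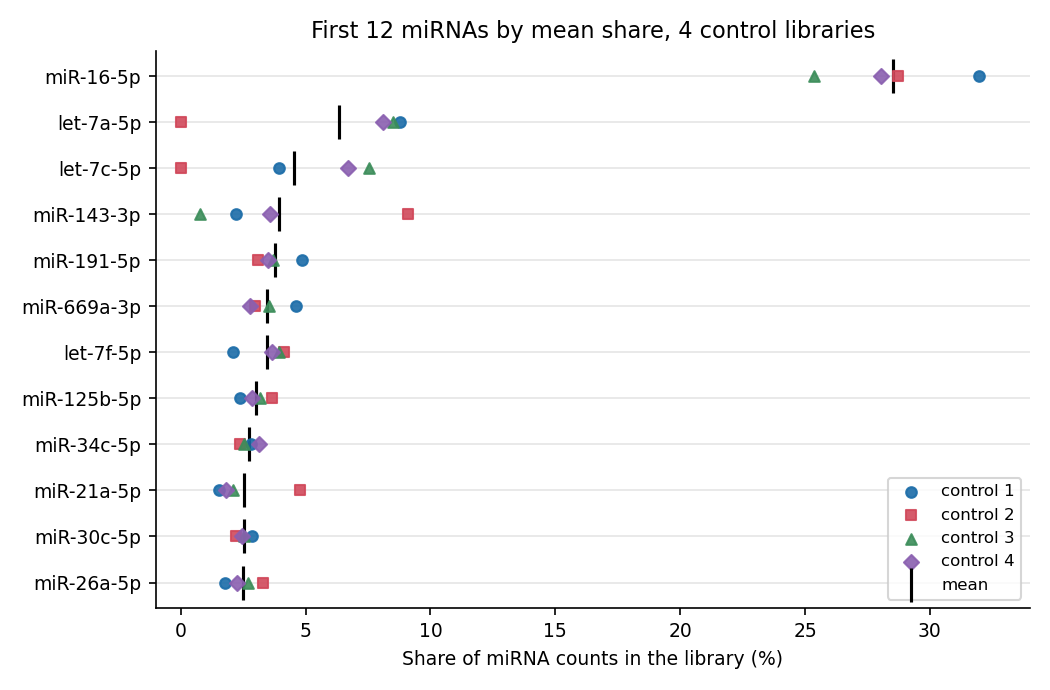
The plot gives the share of miRNA counts, in percent, of the first 12 miRNAs by mean share, with 1 point per control library and a bar for the mean. miR-16-5p lies between 25.4 and 32.0% in each library, while let-7a-5p and let-7c-5p are listed at 0 in control 2 and miR-143-3p and miR-21a-5p are highest there.

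Families were also summed by list. The miR-17-92 cluster and its paralogs, with members that promote proliferation, had 11 of 12 listed names in the table, and their sum took 5.89% ± 0.806 of miRNA counts. Its leading members were miR-19b-3p with 20162, 23348, 16112 and 17997 counts and miR-93-5p with 11768, 12376, 8642 and 8734. miR-92a-3p, of the same cluster, had 9224, 7475, 8166 and 8356 counts and, with a CV of 9.23%, was among the 3 miRNAs of smallest spread. The testis cluster on the X chromosome had all 18 listed names in the table, 17 of them with a count in every library, and took 2.06% ± 0.506. It was led by miR-743a-3p with 5039, 4826, 2711 and 3390 counts and miR-465c-5p with 4963, 4436, 2804 and 2978. Both were higher in control 1 and control 2 than in the other 2 libraries.

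The miR-34 and miR-449 family took 4.62% ± 0.742 of miRNA counts, and the miR-10 family, with its relatives miR-99, 100 and 125, 5.12% ± 0.857. miR-10a-5p, encoded within a Hox gene cluster, had 7768, 11248, 13005 and 12356 counts. The miR-30 family took 3.49% ± 0.586, and only 2 of its 5 members had a count in every library. One of the others, miR-30d-5p, had 0, 0, 6997 and 0 counts, and miR-124-3p had 0, 0, 693 and 0. Their CV of 200% was the largest of the 140 miRNAs with a mean of at least 100 counts. Any feature with a count in only 1 of 4 libraries has this CV, whatever its level. The miR-200 family of epithelial cells took 0.620, 0.778, 2.45 and 1.63%, highest in control 3. Its member miR-141-3p was listed at 0 in control 1 and control 4, with 0, 1555, 2045 and 0 counts.

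Arm choice was stable. Of 193 hairpins with both arms named, 66 had at least 100 counts over both arms in every library. In 35 of them the 5p arm was ahead in 4 of 4 libraries, in 28 the 3p arm, and 3 were mixed. In 54 of the 66 a single arm held over 95% of the counts on average. Among the abundant hairpins miR-191 had 99.97% ± 0.0312 of its counts on 5p, miR-34c 93.7% ± 0.967 and miR-21a 99.998% ± 0.00449. The 3p arm led in miR-669a, with 3.69% ± 0.608 of counts on 5p, in miR-199a with 4.52% ± 1.51 and in miR-29a, a regulator of collagen genes, with 0.0563% ± 0.0490.

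The hairpins of miR-191 and miR-29a are printed, chosen after their values were seen, as a clear case of each kind, with the arm that was ahead in capitals (RefSeq, GRCm38.p6).
Mir191 hairpin: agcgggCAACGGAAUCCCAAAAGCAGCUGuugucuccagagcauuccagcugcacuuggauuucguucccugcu
Mir29a hairpin: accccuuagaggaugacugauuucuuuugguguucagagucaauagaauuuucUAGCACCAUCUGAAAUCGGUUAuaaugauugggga

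The mixed hairpins were miR-34b, miR-30a and miR-878. In miR-34b and miR-30a the change of arm came from a listed 0: the 5p share of miR-34b was 100% in control 1, where miR-34b-3p is at 0, and 27.1, 14.8 and 21.6% in the others. miR-878 of the X-linked cluster had no such 0, and had 166, 358, 104 and 123 counts on 5p and 382, 331, 155 and 220 on 3p. Its 5p share was 30.3, 52.0, 40.2 and 35.9%, so 5p was ahead in control 2 only. Shares on 5p that were also far from 100% belonged to miR-9, with 67.8% ± 4.53 on 5p, and miR-871, with 69.5% ± 5.44. For miR-878, whose arms were closest to balance without a listed 0, both arms are shown in capitals.
Mir878 hairpin: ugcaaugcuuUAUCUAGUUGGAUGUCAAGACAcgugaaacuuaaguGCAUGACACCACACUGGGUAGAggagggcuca

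tRNAs are named in the table by amino acid and codon, with Y for C or T, and their leading name changed with the treatment of copies. Summed over 29 copies, tRNA-Glu-GAG_ had 337688, 354926, 354693 and 433772 counts and took 24.7% ± 2.14 of tRNA counts. tRNA-Gly-GGY, with 25 copies, had 293526, 292744, 419954 and 428196 and took 23.7% ± 3.30. Fragments of both are the best known of sperm tRNA fragments. Glu-GAG_ led in control 1, control 2 and control 4 and Gly-GGY in control 3. Counted by the largest copy alone, they took 9.01% ± 0.972 and 10.1% ± 2.39.

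The copies of these names show the repeated counts directly. Of the copies of Gly-GGY 3 had exactly 26886, 26619, 38723 and 39530 counts in control 1 to control 4, and 9 copies, the largest included, lay within 1% of it in every library. Copies of Glu-GAG_ fell into groups that moved apart. The largest copy had 29343, 34271, 26081 and 28834 counts and was highest in control 2, while 3 other copies had exactly 18701, 17111, 22956 and 29531 and were lowest there. These copies were highest in control 4, where the largest copy was not.

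By the largest copy the selenocysteine tRNA, which decodes UGA in selenoprotein mRNAs and has 1 copy in the table, came first. tRNA-SeC(e)-TGA had 55386, 57455, 46982 and 46293 counts, 15.7% ± 1.61 of tRNA counts by largest copy and 3.47% ± 0.637 by the sum. tRNA-Leu-TTA rose from rank 11 to rank 3, with 94.2% of its counts in 1 of 8 copies, and tRNA-Ser-TCA, also with 1 copy, from rank 14 to rank 5. Going the other way, tRNA-Asp-GAY fell from rank 4 to rank 8 and tRNA-Lys-AAA from rank 5 to rank 11.

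Summed by amino acid, Glu took 24.7% ± 2.15, Gly 24.7% ± 3.35, Val 11.2% ± 3.86, Leu 7.88% ± 1.20 and Ser 7.66% ± 1.68. By largest copy, Leu took 17.9% ± 2.02, SeC 15.7% ± 1.61, Val 13.4% ± 5.71, Ser 13.4% ± 1.82 and Gly 10.8% ± 2.51. Mitochondrial tRNAs took 0.487% ± 0.140 by the sum and 0.927% ± 0.114 by the largest copy. A list of 12 names of tRNAs known for abundant sperm fragments took 66.1, 66.0, 74.4 and 75.5% of summed tRNA counts. This share was higher in control 3 and control 4 than in the others. It was not taken by largest copy, where the leading names of the list, Glu-GAG_ and Gly-GGY, held 9.01% ± 0.972 and 10.1% ± 2.39.

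Among the abundant tRNAs 2 valine names varied most. tRNA-Val-GTG had 80284, 81715, 184738 and 116892 counts and tRNA-Val-GTY 29597, 29933, 75004 and 46109, with CVs of 42.7 and 47.8%, the largest of the abundant tRNAs. Control 3 was the highest library for both, control 4 came next, and the other 2 were nearly equal. By the largest copy the order of libraries was the same, with 4.66, 4.35, 10.5 and 7.24% of tRNA counts for Val-GTG. The other valine name, tRNA-Val-GTA, did not share this order, with 0.688, 0.743, 0.636 and 0.590% of summed tRNA counts. At the other end, Glu-GAA with 932, 971, 884 and 929 counts and Ala-GCY with 8403, 8140, 7319 and 8160 had CVs of 5.83 and 6.68%.

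**Figure D3:**
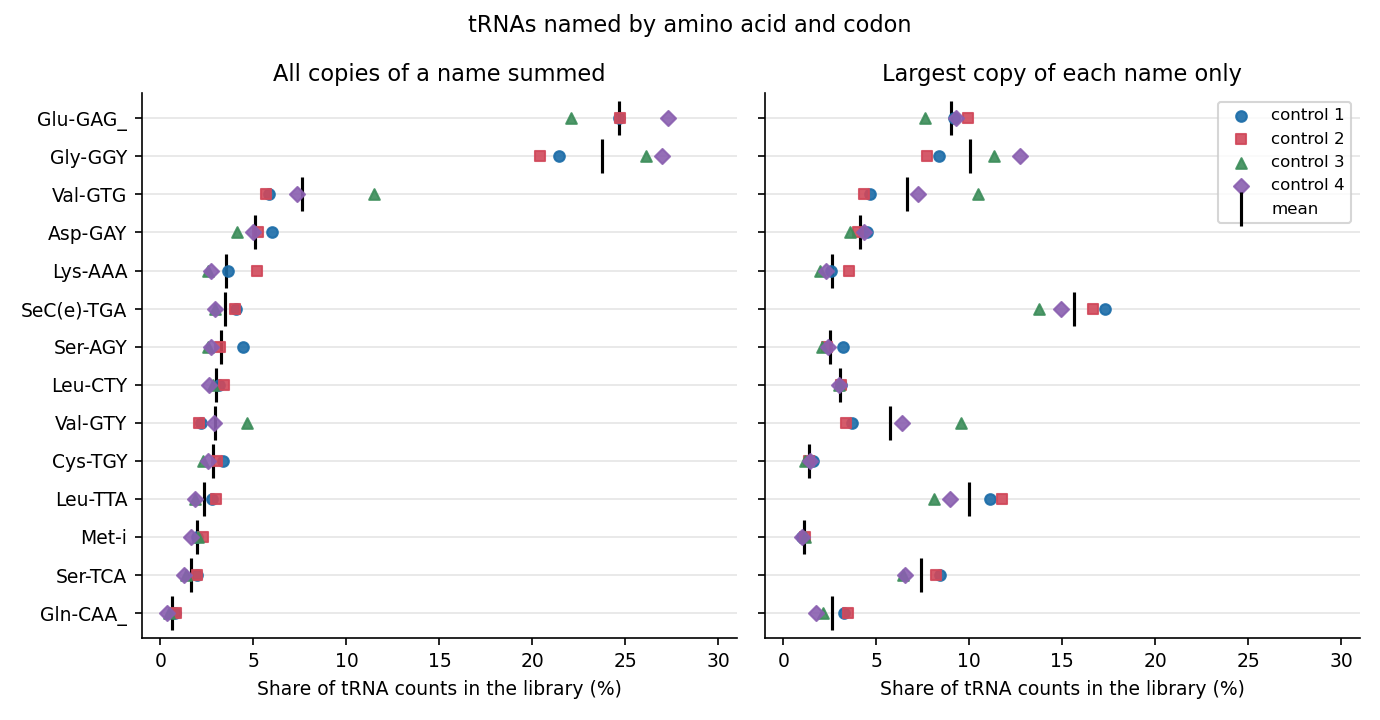
Points are the share of tRNA counts, in percent, of each tRNA name in each control library, by the sum of all copies on the left and by the largest copy on the right, with a bar for the mean. Glu-GAG_ and Gly-GGY lead the left panel with 24.7 and 23.7%, SeC(e)-TGA leads the right with 15.7%, and Val-GTG and Val-GTY are highest in control 3 in both.

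The order of piRNA clusters changed little between libraries: 8 of the first 10 names were shared by all 4. Of 172 clusters, each represented by its largest transcript, 16 had no count in any control library. The cluster named 18-qE1-36451 led in each library with 65343, 39350, 53459 and 72892 counts, 9.05% ± 0.218 of cluster counts. The next places fell to 9-qC-31469 with 53982, 32124, 47002 and 64253 counts (7.69% ± 0.130) and 17-qA3.3-27363 with 45779, 27487, 43475 and 56265 (6.74% ± 0.352). These 3 kept their ranks in 4 of 4 libraries. The clusters 6-qF3-28913 (6.09% ± 0.0458) and 9-qA5.3-24188 (5.97% ± 0.128) were ranks 4 and 5 and changed places in control 2 only.

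Exactly 9 clusters were needed to reach 50% of cluster counts in every library, and 38 to reach 90%. The first 10 held 53.2 to 53.9%. The order is by counts, since cluster lengths are not in the table. Most of these counts came from the 94 clusters named by chromosome band, as the long clusters active in meiosis usually are. The 78 clusters named after genes held 1.32% ± 0.0386, and 9 of them had a mean of at least 100 counts, against 82 of those named by band. The gene-named leader was pi-Cbl with 3520, 2178, 2826 and 3794 counts, and pi-Zfp382 had 1815, 1033, 1516 and 2100. Both were picked after their values were seen.

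Between libraries the clusters moved together. As CPM of the library total, their median CV was 23.8% (91 clusters with a mean of at least 100 counts). As a share of all cluster counts it was 3.71%, against the median CV of 1.97% that counting error alone gives. Without control 2 the median CV of cluster CPM was 12.4%. The smallest CV belonged to pi-Zbtb37 with 138, 121, 103 and 161 counts (15.8%), and the largest to 13-qA5-208 with 384, 240, 475 and 616 (33.4%).

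This pattern of libraries was then looked for elsewhere, a step added after the data were seen. For each feature with a mean of at least 100 counts, log2 CPM was centred over the 4 libraries and compared with that of the summed clusters. At the median cluster the centred values were 0.224, -0.516, -0.0225 and 0.321. A feature was counted as sharing the pattern when no library deviated by more than 0.3. It was shared by 89 of 91 clusters, but these make up the reference, so their match is largely fixed in advance. It was also shared by 25 of 42 noncoding exons, 123 of 247 antisense and 90 of 219 sense transposon names. A smaller share matched among mRNA exon features (51 of 285), introns (20 of 299), miRNAs (1 of 140), tRNAs (0 of 56) and snoRNAs (0 of 44). The match for miRNA was miR-296-5p with 233, 136, 174 and 215 counts. The number of matches depends on the limit: at 0.5, 7 of 56 tRNAs, with 51.2% of tRNA counts, and 8 of 44 snoRNAs matched. The low value of control 2 carries the comparison: without that library the centred values of the summed clusters were 0.0434, -0.190 and 0.146 in control 1, control 3 and control 4, all within 0.3, so a feature of equal CPM in the other 3 would match and the pattern could not be told from none.

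Many leading names outside the clusters had this pattern. The noncoding transcript 1700001L05Rik had 6331, 3840, 5293 and 7211 counts and 4931408D14Rik 5114, 3142, 4125 and 5965. The intron of LOC100125594 led its class in each library with 27020, 16993, 21678 and 29819 counts. The first mRNA exon feature, the predicted gene Gm5878, had 7453, 4422, 5725 and 8169. Features that share the pattern held 63.7% of noncoding exon counts, 65.5% of antisense transposon counts, 29.4% of sense transposon counts and 13.9% of mRNA exon counts. Whether such features lie inside piRNA clusters was not tested.

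**Figure D4:**
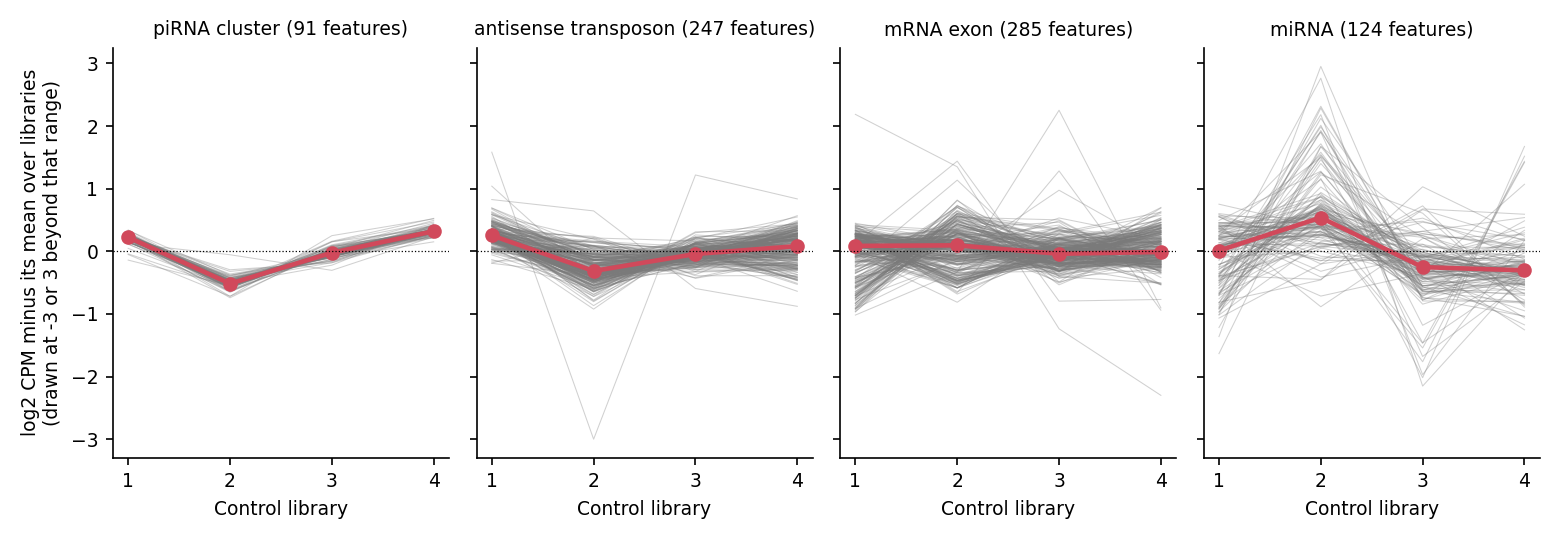
Each grey line joins the 4 control libraries for 1 feature with a mean of at least 100 counts, as log2 CPM minus its mean over libraries, and the red line is the median; the libraries have no order 16 of 140 miRNAs with a 0 are left out, and values beyond the axis are drawn at its end. piRNA clusters run together and are lowest in control 2 (median -0.516), antisense transposons follow less closely (-0.314), mRNA exons split into features up and down in control 2, and miRNAs are highest there (0.539).

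Transposon fragments were led by single copies. The name L1Md_F2, a young family of the LINE-1 retrotransposons, had 69034, 56573, 60299 and 58859 sense counts, 26.2% ± 1.34 of all sense transposon counts. Of these 97.3% came from 1 of 8031 copies. FordPrefect, an old DNA transposon, had 16712, 19213, 19286 and 10630 sense counts (7.16% ± 2.24), 99.9% of them from 1 of 39 copies. What the transcripts behind these copies are was not tested. With the largest copy of every name left out, L1Md_F2 fell to 1.59% of sense counts and the first name was RLTR4_MM-int, an endogenous retrovirus related to murine leukaemia virus, with 3.92% ± 1.41.

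RLTR4_MM-int spread its counts over 152 copies, the largest of which held 12.9%. It had 2265, 4615, 5342 and 5913 sense counts, low in control 1, where its rank was 16 against 3 in each other library. ORR1A2-int had 2240, 4037, 2747 and 4566. The short interspersed elements B3 and MIRb had 1.49% ± 0.0857 and 1.34% ± 0.174 of sense counts. Altogether the first 10 of 357597 sense copies held 38.2% of sense counts and the first 100 held 56.4%.

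Antisense counts were less concentrated, with 15.9% in the first 10 of 426228 copies. The retroviral name MurERV4_19-int led in each library with 10971, 6316, 8790 and 11924 counts (4.24% ± 0.418 of antisense counts), 96.0% of them from 1 of 201 copies. L1M2, ORR1F and ORR1F-int followed with 3.52% ± 0.191, 2.70% ± 0.206 and 2.39% ± 0.202, and the first 3 names kept their ranks in 4 of 4 libraries. All of these were lowest in control 2. Without the largest copies MurERV4_19-int fell to 0.304% and B3 led with 3.27% ± 0.222. The name that varied most in control 2 was RMER17A-int, picked for that, with 640, 17, 499 and 412 antisense counts.

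By family, LINE-1 took 39.4% ± 1.60 of sense and 29.6% ± 1.36 of antisense counts. Its reads were 58.6% ± 2.47 sense, and 33.3% ± 1.40 sense once the largest L1Md_F2 copy was left out, so the sense share lay above 50% only with that copy. The ERVK family of endogenous retroviruses was 34.6% ± 1.04 sense, ERVL-MaLR 42.2% ± 2.12 and ERV1 56.8% ± 3.94. For these families the share was not taken without the largest copies, and single names weighed on it. MurERV4_19-int held 9500.25 of the 33988.5 mean antisense counts of ERVK. ORR1F-int held 5360.25 of the 37951.8 of ERVL-MaLR. The short B4 elements at 50.3% ± 0.502, the B1 elements of the Alu family at 49.1% ± 0.494 and hAT-Charlie at 50.5% ± 0.309 were nearly even in sum. Single names were not, as these, picked for their strand, show. In hAT-Charlie, Charlie1a was 96.5% ± 1.20 sense and Charlie1 7.06% ± 1.33. Among B1 elements, B1_Mus1 was 73.6% ± 0.926 sense and B1_Mur1 26.6% ± 2.08. The active mouse retrotransposons IAP and ETn were minor. IAP, taken by name, had 1.41% ± 0.165 of antisense and 0.521% ± 0.0511 of sense counts. ETn names had 0.0822% ± 0.00992 of antisense and 0.136% ± 0.0168 of sense counts. MERVL and its MT2 repeats had 0.890% ± 0.0830 of antisense and 0.909% ± 0.0817 of sense counts. IAPEz-int had 762, 551, 906 and 979 antisense against 536, 466, 572 and 638 sense counts.

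Fragments of mRNA exons were spread over many genes: 823 of 19213 features were needed for 50% of the counts. Of the first 12 by counts, 8 shared the library pattern of piRNA clusters, and 7 of these had over 81.7% of their counts in 1 exon row. Besides Gm5878, with 99.6% in 1 of 3 exon rows, these included Tbl2, with 3244, 1930, 2580 and 3624 counts and 99.7% in 1 of 7 exon rows. Asb1, with a SOCS box of ubiquitin ligases, had 2617, 1564, 2088 and 2826 and 96.8% in 1 exon row. Wdfy3, a scaffold of selective autophagy, had 1613, 985, 1378 and 1991 and 91.6% in 1 of 66. The exception was 1700006A11Rik, where the largest of 12 exon rows held 19.2%.

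For 5 of these 8 genes the table also holds a cluster named after the gene, and nearly all counts stood in the exon. Tbl2 had 61, 38, 49 and 56 counts under pi-Tbl2, and 1700006A11Rik had 100, 59, 92 and 108 under its cluster against 4202, 2451, 3278 and 4477 in exons. Asb1 had 2, 3, 6 and 2 under its cluster. The opposite held for Cbl, a ubiquitin ligase, with 208, 118, 177 and 217 exon counts against the larger counts of pi-Cbl above. These pairs were picked after their values were seen, and how reads that lie in both were assigned is not stated in the labels.

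The other mRNAs of the head did not share the pattern. Akr1b7, an aldo-keto reductase known as a vas deferens protein, had 1787, 4088, 2332 and 4466 counts, and Ptgs2, the inducible cyclooxygenase, 720, 1538, 1361 and 1842. Crisp1, secreted by the epididymis and bound to sperm, had 1327, 1727, 2092 and 2283. All 3 were lowest in control 1. Hnrnpa0, an RNA-binding protein gene with 1 exon, had 1877, 1616, 1516 and 1583. The smallest CVs of the class were those of 4930571K23Rik with 157, 144, 153 and 162 counts (3.27%) and Kif1b, a kinesin gene, with 157, 150, 163 and 178 (3.82%), both below the 8.06 and 7.86% that counting error alone gives.

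Per kilobase of the longest matching GENCODE M21 transcript, an order that was added after the data were seen, 7 of the first 12 genes by counts remained among the first 12, and the 5 that entered were Gm20594, Smcp, Prm2, Map1lc3a and Cd52. Lengths were found for 281 of the 285 features with a mean of at least 100 counts, and a feature without a length could not be ranked. Features with a length held 97.1% of mRNA exon counts. Gm5878, first by counts with 2.57% of them, was not at the head of this order. Its absence does not show a lower level. Among features with a length Akr1b7 came first with 574 ± 226 CPM per kb, and Crisp1 had rank 4 with 305 ± 61.7. Smcp, of the sperm mitochondrial capsule, had rank 5 with 216 ± 23.2 CPM per kb from 888, 790, 752 and 744 counts. Prm2, a protamine that packs sperm DNA, had rank 10 with 125 ± 25.3, and Odf1 of the tail's outer dense fibres had 111 ± 9.22. Prm1 had 77.0 ± 14.7 and Tnp2, a transition protein, 62.2 ± 6.63. Tbl2 fell from rank 5 by counts to rank 16.

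Introns were led by LOC100125594, Myo3a with 16417, 14769, 12497 and 9146 counts, Snhg1 with 10744, 11729, 13486 and 8036 and Pcsk5 with 7436, 7410, 10459 and 16444. Snhg1 and Gas5 are snoRNA host genes, and the introns of Gas5 had 4592, 5209, 7585 and 5509 counts. In Myo3a and Pcsk5 99.9 and 99.6% of counts lay in 1 intron row, and Myo3a was lowest and Pcsk5 highest in control 4. Gpc5, picked for its spread, had 4492, 2793, 568 and 385. Among noncoding exons outside the cluster pattern, the nuclear RNAs Malat1 and Neat1 had 2259, 4241, 4017 and 3052 and 1799, 2785, 1959 and 1465 counts, and Gas5 had 2544, 2640, 2728 and 1856.

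Small structural RNAs were dominated by a few names. U4, U5 and U1, RNAs of the spliceosome, took 33.3% ± 5.72, 25% ± 6.2 and 18.0% ± 2.71 of snRNA counts, and U5 led in control 4 with 16187 counts against 13426 for U4. Snord85 with 5308, 5508, 5202 and 3584 counts led the snoRNAs (19.2% ± 2.34), ahead of Snord2 and Snord104. 4.5S RNA had 8230, 9312, 16173 and 19856 counts, higher in control 3 and control 4. Of the Y RNAs, which bind the Ro protein, HY1 had 1177, 1128, 765 and 1008 and HY3 691, 655, 855 and 721, so their order turned in control 3. LSU-rRNA_Hsa made up 97.1% ± 0.308 of the small rRNA class.

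Mitochondrial mRNA fragments were led by COX1, a subunit of cytochrome oxidase, with 2675, 2094, 4836 and 3716 counts and 31.3% ± 5.88 of the class. ND5 and COX2 followed with 9.44% ± 0.90 and 9.13% ± 1.32. COX2 had 684, 414, 1919 and 1363 counts. All 3 were lowest in control 2 and highest in control 3, as the class was, and the median CV of the 13 genes was 54.8%. Hairpin rows outside the mature arms were led by mir-451a, the red blood cell miRNA, with 708, 1467, 411 and 2650 counts, and mir-881 of the X-linked cluster with 786, 1085, 576 and 587.

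The spread between libraries differed by class. The CV from counting alone is given beside it as the limit that depth sets. The median CV was 39.5% for 140 miRNAs against 3.28% from counting alone, and 139 of the 140 exceeded 2 times their counting CV. It was 19.4% for 56 tRNAs against 1.49%, 20.4% for 285 mRNA exon features against 7.76%, 20.8% for antisense and 21.6% for sense transposons against 5.07 and 5.29%, and 22.3% for snoRNAs against 6.17%. Of the mRNA exon features 202 exceeded 2 times their counting CV. The features with the largest CV among mRNA exons were Clu, clusterin, with 124, 198, 1201 and 145 counts (126%), Ndufv2, a subunit of respiratory complex I, with 353, 196, 33 and 17 (106%) and Myh11, smooth muscle myosin, with 98, 242, 52 and 57 (81.3%).

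Defining transcripts of sperm and of other cells were checked beside these values. All 25 listed transcripts of spermatids and sperm had a count in every library, with a summed level of 692 to 873 CPM, so the markers of the labelled cell type were present in each. Of 20 listed transcripts of epididymal epithelium 18 were in the table, summing to 386 to 560 CPM, and most of that was Crisp1. Lcn5, Lcn8 and Lcn9, lipocalins of that epithelium, had at most 7 counts. Some other members were higher in control 1 and control 3. Adam7, a membrane protein, had 114, 17, 41 and 11 counts, and Ces5a, a carboxylesterase, 61, 25, 71 and 15. Wfdc10 had 51, 6, 33 and 8, and Gpx5, a secreted peroxidase, 16, 1, 42 and 2. This order was not that of Crisp1. Nor was it that of Aqp9, with 28, 79, 45 and 57 counts, or Spink11, with 5, 12, 7 and 13, both lowest in control 1. The 14 blood and immune transcripts summed to 21.9 to 43.6 CPM, with alpha globin Hba-a1 at 20, 40, 25 and 26 counts and the leucocyte antigen Ptprc at 2, 5, 2 and 7. In whole-sample data, fewer cells of a type and less RNA per cell cannot be told apart.

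Several lists moved with single libraries. The 8 miRNAs of muscle and stroma in the table summed to 7332, 45078, 3227 and 9061 CPM, a 14.0-fold range. They took 3.81, 16.1, 1.77 and 5.14% of miRNA counts. Their sum was highest in control 2, though miR-126a-3p (153, 286, 350 and 239 counts) and miR-214-3p (7, 0, 9 and 9) were not. The 9 muscle and stroma transcripts, all present in every library, had 300, 593, 251 and 193 counts, also highest in control 2, with smooth muscle actin Acta2 at 40, 95, 21 and 23 and Myh11 as above. Tagln, Des and Vim were also highest there, while the collagen genes Col1a1 (47, 37, 46 and 31), Col1a2 (39, 43, 53 and 46) and Col3a1 (24, 43, 52 and 23) were not, and the endothelial gene Pecam1 had 2 counts in each library. The higher miRNA share of control 2 was accompanied by these markers, and their part in it was not tested. With the 8 listed miRNAs left out, miRNA took 18.7, 24.6, 18.0 and 16.9% of counts, and other miRNAs that such cells may hold stayed in. Epithelial miRNAs summed to 1319, 2261, 4586 and 3118 CPM, with miR-141-3p listed at 0 in control 1 and control 4. The 7 transcripts of epithelial junctions and keratins summed to 44.9, 84.1, 63.2 and 74.0 CPM, so the highest libraries of these lists differed.

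Red blood cell miRNAs, led by miR-451a with 500, 1964, 219 and 3048 counts, summed to 254, 694, 105 and 1136 CPM, a 10.8-fold range with control 4 highest, where the globin transcript above was highest in control 2. White blood cell miRNAs summed to 223, 216, 269 and 327 CPM, but miR-142a-5p, which made up most of that in the other libraries, was listed at a doubtful 0 in control 2 (765, 0, 895 and 1135 counts). The other 3 were highest in control 2, with 64, 627, 168 and 248 counts for miR-150-5p, 70, 179, 51 and 50 for miR-223-3p and 38, 94, 22 and 54 for miR-155-5p. The list for Sertoli and Leydig cells had 138, 225, 1250 and 161 counts, nearly all of them Clu, which the epididymis also expresses. Of its other members Amh and Gata4 had at most 3 counts and Hsd3b1 none. The steroidogenic genes Cyp17a1 and Star had 0, 0, 14 and 2 and 9, 5, 14 and 7 counts, both highest in control 3, and Sox9 had 1, 7, 8 and 2. Wt1 had 3, 12, 8 and 0, and Insl3 had 0, 0, 4 and 5. Liver-specific miR-122-5p had 40, 130, 5 and 13 counts. The part of any of these in other differences between libraries was not tested.

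**Figure D5:**
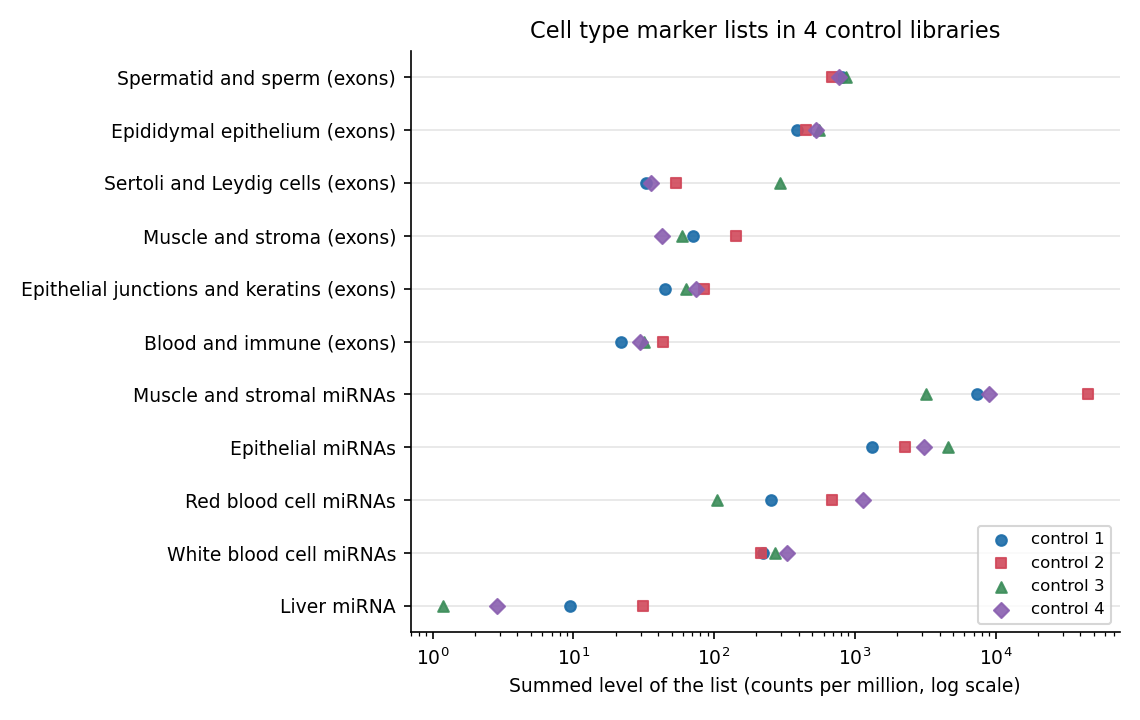
Points are the summed level of each marker list in 1 control library, in CPM on a log axis, for mRNA exon lists and miRNA lists. Sperm transcripts lie close together between 692 and 873 CPM, whereas muscle and stromal miRNAs reach 45078 CPM in control 2 and Sertoli and Leydig transcripts, nearly all Clu, reach 296 CPM in control 3.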

How the data were processed

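Small RNA libraries of mouse sperm were made with Trizol and Qiaseq reagents, per the labels' protocols. The authors deposited whole-number counts per annotated row and library, per the file headers. Aligner, genome build, counting rule and whether reads or molecular identifiers were counted are not given in the sources used here. Only the 4 control columns of 1078961 rows were used. Rows with the same name and class were summed, or the largest row taken, and each piRNA cluster was represented by its largest transcript. The resulting totals of 4173236 to 4543220 counts scaled CPM. Values are means ± SD over 4 libraries, and a counting CV was computed from the counts. Neighbouring classes were compared by a two-sided exact sign-flip permutation test. edgeR 4.0.16 gave TMM factors as an alternative scaling. Calculations used Python 3.11.15, numpy 2.4.6, pandas 2.3.3 and scipy 1.17.1. The CV calculation was tested on simulated data. miRNA sequences came from RefSeq by name, and transcript lengths from GENCODE M21. Members, marker lists and named features were chosen with earlier results of these data known: the first names by mean share of each class, the first 4 of each list, and the largest and smallest CVs; other picks are said to be so. No group was compared, so no call across features was made.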

Additional observations from a re-analysis of the deposited data

Results flagged for a closer look

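Of 135 sets of 4 library values examined (class shares, leading names and lists), 6 had 1 library whose gap to the nearest other exceeded the 95% limit for 4 samples. Chance alone gives about 1 in 20. In 3 of the 6 the library was control 2. The share of miRNA was 28.0% there against 17.6 to 19.2% in the others, and let-7a-5p was at 0% of miRNA counts against 8.10 to 8.79%. The third was the summed level of muscle and stromal miRNAs, at 45078 CPM against 3227 to 9061. In control 3 the summed transcripts of Sertoli and Leydig cells stood at 296 CPM against 32.8 to 53.9. Also in control 3, the piRNA cluster 9-qA5.3-24188 took 5.78% of cluster counts against 6.01 to 6.06%, a small difference. In control 1 the retroviral name RLTR4_MM-int took 0.855% of sense transposon counts against 2.26 to 2.46%.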

How the results depend on the processing

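No paired analysis was possible because no groups were compared. Of 55 values under alternatives other than leaving out a library, 36 stayed within 1 SD over libraries (for counts and CVs, within 1.5 times). With the largest row of each name, tRNA, miRNA and piRNA clusters took 12.8, 34.5 and 24.8% of counts, and tRNA-Glu-GAG_ and tRNA-Gly-GGY 9.01 and 10.1% of tRNA counts. With all transcripts of a cluster summed, piRNA clusters took 20.2% of counts and 18-qE1-36451 6.20% of them. Without miRNAs of a doubtful 0, miR-16-5p took 32.8%. Without the largest copy of each name L1Md_F2 took 1.59% of sense and MurERV4_19-int 0.304% of antisense counts, and 3 of the first 6 sense names were kept. Per kilobase, 7 of the first 12 mRNAs were kept, and features without a length could not be. At a minimum of 1000 counts fewer hairpins entered, and 28 of 29 had the same arm ahead in every library, against 63 of 66. Without a filter the median CV was 115% for miRNAs and 56.1% for mRNA exons. Scaled within the class it was 3.71% for piRNA clusters. At a deviation of 0.5, 192 antisense names, 96 mRNA exon features and 5 miRNAs shared the cluster pattern. So did 7 tRNAs and 8 snoRNAs.

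Each library was left out in turn. Then tRNA took 34 to 35.8%, miRNA 18.4 to 21.8% and piRNA clusters 13.8 to 16.4%. miR-16-5p took 27.4 to 29.6%, Glu-GAG_ 23.8 to 25.6%, Gly-GGY 22.6 to 24.8%, 18-qE1-36451 8.98 to 9.12%, L1Md_F2 25.7 to 26.8%, MurERV4_19-int 4.07 to 4.41% and Gm5878 2.35 to 2.85%. Median CVs ran from 28.3 to 43.0% for miRNA, 15.4 to 22.6% for tRNA, 12.4 to 28.5% for piRNA clusters (lowest without control 2) and 16.0 to 20.6% for mRNA exons. Without control 2, 146 mRNA exon features and 27 miRNAs passed the same limit of deviation, but the cluster pattern of the other 3 libraries then lies within that limit of no change, so these counts show no shared pattern. With 4 libraries only large differences between neighbouring ranks can be told from the spread, and counting error covers neither copies that share reads nor reads counted more than once.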
